A study of Mus musculus with 6 samples.

Results

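The miR-183 cluster is a group of 3 microRNA (miRNA) hairpins, Mir183, Mir96 and Mir182, that lie close together on mouse chromosome 6. Its members were taken by name from the authors' table of mature miRNAs: both arms of each hairpin, 6 of 1907 distinct miRNAs, all 6 of them listed. The mice were C57BL/6N littermates in normal health, aged 12 weeks and fed chow, and a small RNA library was made from the liver of each of 3 females and 3 males. The females and males thus share strain, age, diet and tissue, no agent or engineered allele is named for either group, and the study's question is which liver features differ with sex before any injury. The labels name each library as a sample of its own, but do not say which animals shared a litter. The tests therefore treat the 6 samples as independent, and their p-values make no allowance for shared litters.

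A miRNA hairpin is cut into a duplex of a 5p and a 3p strand, of which usually 1 strand is loaded into an Argonaute protein and the other is degraded. The loaded strand finds messenger RNAs through its seed, bases 2 to 8, and lowers their stability and translation. The miR-183 cluster is known for its high level in sensory organs and epithelia. In liver, transcription of the cluster is known to be driven by SREBP-2, the transcription factor that senses low sterol and switches on cholesterol synthesis. Its miRNAs are known to act on Insig2, which holds SREBP in the endoplasmic reticulum, on Fbxw7, which marks nuclear SREBP for degradation, and on Foxo1, a transcription factor of the fasting liver. SREBP itself was not measured here, so the link to sterols is background and was not tested.

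The mature sequences show why the 3 hairpins are treated as a family: their 5p strands have closely related seeds, and their 3p strands do not. They are given 5′ to 3′ from RefSeq (GRCm38.p6, the mm10 build), with the seed in capitals.

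miR-183-5p: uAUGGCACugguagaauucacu
miR-96-5p: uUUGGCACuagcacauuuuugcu
miR-182-5p: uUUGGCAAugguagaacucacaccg
miR-183-3p: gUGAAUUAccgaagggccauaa
miR-96-3p: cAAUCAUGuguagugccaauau
miR-182-3p: gUGGUUCUagacuugccaacu

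Counted from 1 at the 5′ end, the seed of miR-182-5p differs from that of miR-96-5p by C8A, and the seed of miR-183-5p differs from that of miR-96-5p by U2A. The seeds of miR-182-5p and miR-183-5p therefore share 5 of 7 bases and differ by U2A and A8C, with miR-182-5p as the reference, whereas miR-96-5p shares 6 of 7 with each. Over the whole strand, seed included, the order is another. Aligned from the 5′ end without gaps, miR-182-5p and miR-183-5p were identical at 18 of 22 bases (81.8%), miR-96-5p and miR-183-5p at 13 of 22 (59.1%), and miR-96-5p and miR-182-5p at 12 of 23 (52.2%). No other miRNA with both a RefSeq sequence and a row in the table had the seed of any of the 5p members. The seed of miR-96-3p recurs in miR-3475-5p, which was listed at 0 in all 6 libraries.

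The hairpins are shown with both mature strands in capitals, in the order in which they lie along the minus strand, since the distance between them bears on how they can be transcribed.

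Mir183: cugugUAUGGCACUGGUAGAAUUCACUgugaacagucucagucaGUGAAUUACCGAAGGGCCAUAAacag
Mir96: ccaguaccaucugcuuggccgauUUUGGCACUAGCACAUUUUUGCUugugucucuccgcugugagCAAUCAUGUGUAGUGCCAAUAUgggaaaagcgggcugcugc
Mir182: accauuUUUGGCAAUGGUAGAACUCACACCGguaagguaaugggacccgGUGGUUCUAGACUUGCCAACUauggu

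Mir183 occupies chr6:30169668-30169737, Mir96 chr6:30169446-30169551 and Mir182 chr6:30165918-30165992, all on the minus strand of mm10. Only 116 bases separate Mir183 from Mir96, while 3453 bases separate Mir96 from Mir182, and the whole cluster spans 3820 bases. No other gene of the GENCODE M21 annotation overlaps that span on either strand, so the hairpins are intergenic there. The nearest gene, Rncr4, a long noncoding RNA on the plus strand, starts 3155 bases beyond Mir183. The flanking protein-coding genes are Nrf1, which ends 12459 bases away on the plus strand, and Ube2h, which lies 41551 bases away on the minus strand.

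The 6 libraries held between 3285249 and 16444675 counts, and male replicate 3 was the deepest. The liver label fits the table: miR-122-5p, the hepatocyte miRNA, was the most abundant miRNA. A count of 1 stood for 0.0608 to 0.304 in a library scaled to 1000000 counts, and 1588 miRNAs had a count in at least 1 library. Levels below are in CPM, counts scaled to 1000000 with library sizes adjusted by TMM, a factor that centres most miRNAs between libraries. A read covers a whole mature miRNA, so no length correction is needed between members. Library kits recover sequences unequally, and a ratio between members is therefore a ratio of reads.

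The cluster was present at a moderate level in every liver, and almost all of its reads came from the 5p strands. Its most abundant member was miR-182-5p, at a mean of 191 CPM over the 6 libraries, rank 97 of the table. Next came miR-183-5p, at a mean of 49.1 CPM (rank 155), and then miR-96-5p, at 28.5 CPM (rank 180). The order of the 3 was the same in each of the 6 libraries. With all members summed, the cluster took 0.0180% of the counts in female replicate 1 (95% exact binomial interval 0.0170 to 0.0192%), 0.0342% in female replicate 2 (0.0323 to 0.0362%) and 0.0208% in female replicate 3 (0.0193 to 0.0224%). In the males it took 0.0246% (0.0234 to 0.0258%), 0.0312% (0.0296 to 0.0329%) and 0.0311% (0.0303 to 0.0320%). The share averaged 0.0243 ± 0.00864% in females and 0.0290 ± 0.00382% in males (SD, n = 3 each). The sexes overlapped, because female replicate 2 had the highest share of all 6 libraries. In TMM-adjusted CPM male replicate 2 was the highest, at 340 CPM beside 332 CPM in female replicate 2, and the sexes overlapped there as well. The intervals allow for counting error alone and take each read as independent. Whether PCR copies of a molecule were counted as separate reads was not given in the sources used here.

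**Figure D1:**
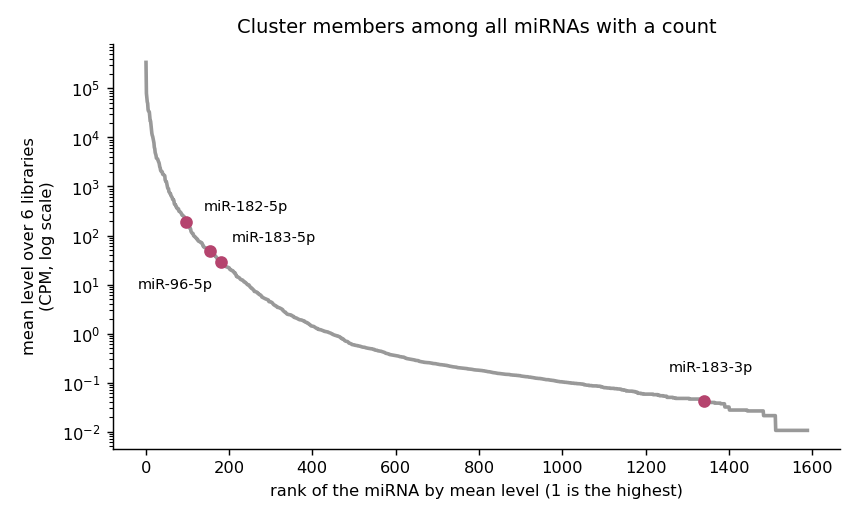
Mean level of each of the 1588 miRNAs with a count, in CPM on a log axis, against its rank, with the detected cluster members as points. The 3 5p members lie between ranks 97 and 180, while miR-183-3p, at rank 1336, rests on 4 counts in male replicate 3.

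The 3p strands were nearly absent. No read of miR-182-3p was counted beside 7896 reads of miR-182-5p. Taking the 3 counts that a count of 0 allows, the 3p strand makes up at most 0.0380% of that hairpin's reads, and the 5p strand was at least 2632-fold higher. For Mir96 there was likewise no read of the 3p strand beside 1123 of the 5p strand, which allows a 3p share of up to 0.267%, so that the 5p strand was at least 374-fold higher. The 3p strand of Mir183 had 4 reads, all in male replicate 3, the deepest library, against 2035 of the 5p strand. These 4 reads are 0.196% of the hairpin's reads (95% exact binomial interval 0.0535 to 0.502%). Summed over all libraries, a count of 0 allows a level of up to 0.0749 CPM of the library totals. Such one-sided hairpins were a minority: of 121 hairpins with both strands listed and a major strand at or above the reads of miR-96-5p, 4 had a minor strand at 0, Mir182 and Mir96 among them, and 15 had 4 reads or fewer. The median minor strand over these 121 hairpins held 1.02% of the reads. The 3 3p strands were too low for a test between the sexes.

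The comparison of the sexes asked whether the 3 measurable members differ between female and male liver. All 3 had a smaller mean in females, and none passed the test. As a fold change, the gap was widest for miR-183-5p and narrowest for miR-96-5p. The level of miR-182-5p was 122, 238 and 137 CPM in the female libraries and 173, 242 and 235 CPM in the males. Female replicate 2 lay among the males, whereas the other 2 females lay below all males. Females averaged 166 ± 63.1 CPM against 216 ± 37.9 CPM for males (SD, n = 3 each), with a log2 fold change of -0.39 (SE 0.25, 95% interval -0.92 to 0.15) and an adjusted p of 0.469 in edgeR's quasi-likelihood test with Benjamini-Hochberg adjustment over all 370 tested miRNAs.

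For miR-183-5p, the member with the AUGGCAC seed, the female libraries stood at 33.0, 55.1 and 29.9 CPM and the male libraries at 42.9, 73.4 and 60.3 CPM. Again female replicate 2 was the only female library within the male range. The means were 39.3 ± 13.7 and 58.9 ± 15.3 CPM (SD, n = 3 each), a log2 fold change of -0.58 (SE 0.28, 95% interval -1.19 to 0.02; adjusted p = 0.294, edgeR). As a fold, female over male, the estimate was 0.668 and the interval ran from 0.440 to 1.01.

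The levels of miR-96-5p were 16.2, 38.5 and 27.6 CPM in females and 34.0, 25.3 and 29.7 CPM in males. Here the females held both the lowest and the highest value, and the males lay between them. The means were 27.4 ± 11.1 and 29.6 ± 4.38 CPM (SD, n = 3 each), a log2 fold change of -0.13 (SE 0.29, 95% interval -0.76 to 0.50; adjusted p = 0.854, edgeR). Its sign is not settled: without female replicate 1 the log2 fold change was 0.13, and with no TMM factor it was 0.00061.

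**Figure D2:**
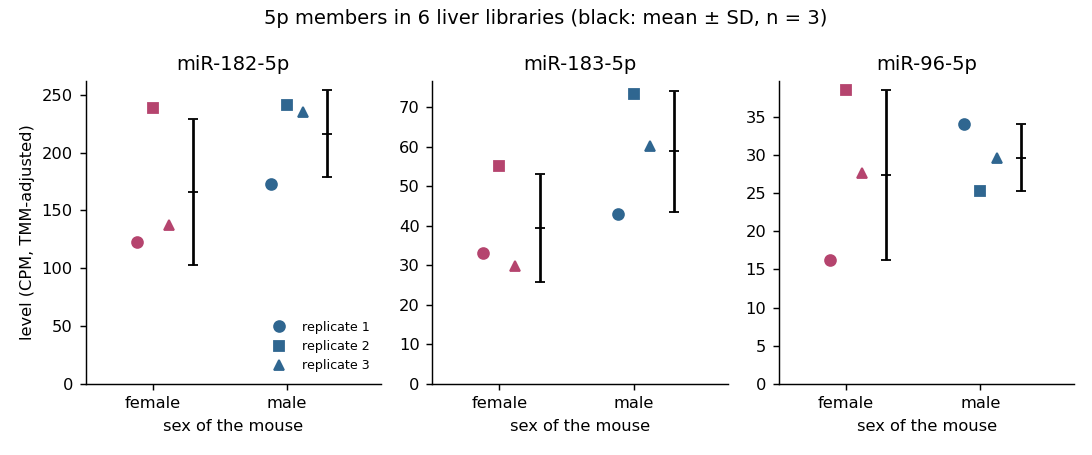
Level of the 5p members in each library, in CPM on axes that start at 0, for females and males, with symbols for the replicates and the mean ± SD of 3 libraries in black. Female replicate 2, the square, stands apart from the other females for miR-182-5p and miR-183-5p and reaches 238 and 55.1 CPM.

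Over the table, 25 of the 370 tested miRNAs (6.76%) passed the adjusted threshold of 0.05, and 3.51% did so with a lower level in females, against 0 of the 3 tested members. At an unadjusted p under 0.05 this edgeR fit gave 0 of the 3 members, where 18.1% of all tested miRNAs lay. The count was 1, miR-183-5p, in edgeR with upper-quartile or RLE factors, in the DESeq2 Wald test and in limma-voom. It was 2, miR-182-5p and miR-183-5p, in edgeR with no filter, without female replicate 2 and without male replicate 1. The share of all tested miRNAs under that unadjusted p was taken only for the fit reported. The counts from these other fits therefore have no background share beside them. After adjustment each of these fits gave 0. None of the 3 members had sexes that did not overlap, as 21.6% of the tested miRNAs did. Female replicate 2 weighed on these values: without it the log2 fold change was -0.75 for miR-182-5p (adjusted p = 0.116, edgeR), -0.90 for miR-183-5p (adjusted p = 0.126, edgeR) and -0.47 for miR-96-5p (adjusted p = 0.541, edgeR), still short of the threshold. The median log2 fold change of all tested miRNAs was -0.01. In bulk liver, fewer cells of a type and less RNA per cell cannot be told apart.

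The share of the cluster's reads held by miR-182-5p ranged from 69.2 to 72.3% over the 6 libraries. Its mean was 71.0 ± 1.09% (SD, n = 6), while the level of miR-182-5p ranged 1.97-fold. Because this member holds most of the reads, its share moves less, in relative terms, than its ratio to the rest. The narrow range therefore does not show a stable composition, and the share of miR-96-5p ran from 7.43 to 14.2%. The ratio of miR-182-5p to miR-183-5p reads was 3.71, 4.33 and 4.58 in females and 4.03, 3.29 and 3.90 in males. The ratio of miR-182-5p to miR-96-5p varied more, at 7.56, 6.19 and 4.96 in females and 5.08, 9.56 and 7.92 in males. That of miR-183-5p to miR-96-5p, the closest neighbours on the chromosome, varied most, at 2.04, 1.43 and 1.08 in females and 1.26, 2.91 and 2.03 in males. No ratio passed a test between the sexes. The mean log2 ratio, female minus male, was 0.17 for miR-182-5p to miR-183-5p (p = 0.3), -0.24 for miR-182-5p to miR-96-5p (p = 0.4) and -0.41 for miR-183-5p to miR-96-5p (p = 0.5) in exact two-sided permutation tests, all with an adjusted p of 0.5 over the 3 ratios. The smallest p that 3 animals against 3 allow is 0.1.

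The 2 members with the most similar sequences along their length, miR-182-5p and miR-183-5p, also went up and down together across the animals. Pearson's r of their log2 CPM over the 6 libraries was 0.95 (Spearman's rho 0.89), and 0.93 with the mean of each sex removed. It stayed at or above 0.94 when any single library was left out. For miR-96-5p, r was 0.62 with miR-182-5p (rho 0.37) and 0.38 with miR-183-5p (rho 0.14), and without female replicate 1, its lowest library, these fell to 0.13 and -0.09. The 6 points of each correlation share their libraries and scaling, so these values are descriptions.

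All 3 members varied more between animals of the same sex than most miRNAs of like level. The within-sex SD of log2 CPM was 0.41 for miR-182-5p, and none of the 42 other tested miRNAs within 1 log2 unit of its level had a larger one; their median was 0.19. It was 0.43 for miR-183-5p, where 10 of 70 miRNAs were larger (median 0.27), and 0.47 for miR-96-5p, where 11 of 81 were larger (median 0.27). The lowest count of a library was 481 for miR-182-5p, 105 for miR-183-5p and 97 for miR-96-5p. For 2 of the members a single library moved this value by over 1.5 times. Without female replicate 2 the SD of miR-182-5p was 0.23, with 15 of 42 miRNAs larger, and without female replicate 1 that of miR-96-5p was 0.26, with 34 of 81 larger.

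**Figure D3:**
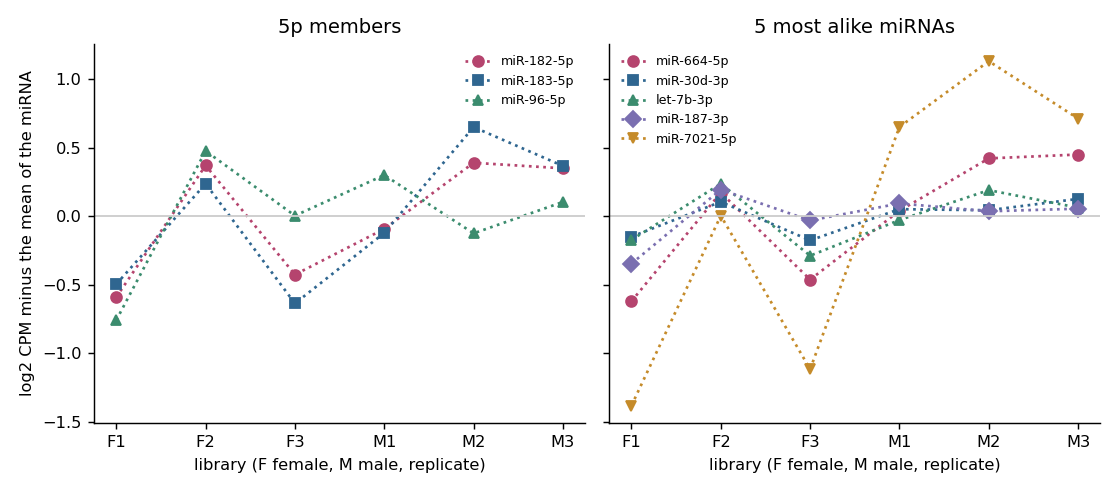
Log2 CPM minus each miRNA's own mean over 6 libraries, for the 5p members (left) and the 5 most alike tested miRNAs (right); dotted lines only join the points of 1 miRNA. Female replicates 1 and 3 are low and female replicate 2 high for miR-182-5p and miR-183-5p, with r = 0.95 between them, while miR-96-5p has its highest male value in replicate 1.

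Of 367 other tested miRNAs, the 5 whose log2 CPM followed the mean of the 3 members most closely were miR-664-5p (r = 0.96), miR-30d-3p (0.92), let-7b-3p (0.90), miR-187-3p (0.87) and miR-7021-5p (0.87). None of them is encoded on chromosome 6. They differed in how far they moved. The first, miR-664-5p, stood at 0.99, 1.94 and 1.14 CPM in females and 1.74, 2.36 and 2.41 CPM in males, low values that rest on 76 counts in all. The range of miR-30d-3p was far narrower, 46.2 to 57.0 CPM. Of the 5, miR-7021-5p passed the sex test, with a log2 fold change of -1.81 (adjusted p = 0.039, edgeR). It too rests on few counts, 120 in all and 15 in females. Without female replicate 1, r fell to 0.68 for miR-187-3p and 0.76 for miR-7021-5p. For the others r stayed at or above 0.87 with any single library left out. With 6 libraries, 10 of the 367 had r above 0.8, and the median r was 0.06.

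Of the tested miRNAs encoded near the cluster, 5 of 6 had a positive log2 fold change, beside 178 of all 370 tested miRNAs. The 5 include miR-29a-3p at 0.01, and these signs were read only in the fit reported. Both strands of miR-335 and of miR-29a are among these 6, so they are not separate loci. The 3 members were negative in the fit reported, and the difference between them and these 6 was not tested. Within 2000000 bases on either side the table listed 8 mature miRNAs, from the hairpins of miR-129-1, of miR-335, which lies in the imprinted gene Mest, and of miR-29a and miR-29b-1, the collagen-repressing pair. Of these 8, 6 were tested and none passed, where 6.76% of all tested miRNAs did. Values of the nearest, miR-335-5p, at 572 kb, were 339, 408 and 399 CPM in females and 402, 255 and 306 CPM in males, a log2 fold change of 0.25 (adjusted p = 0.532, edgeR). The far more abundant miR-29a-3p stood within 32538 to 35801 CPM in all 6 libraries, at 0.01 (adjusted p = 0.963, edgeR). The log2 fold change was 0.21 for miR-335-3p, 0.26 for miR-29a-5p, -0.09 for miR-29b-3p and 0.43 for miR-129-5p; the last 2 have further loci elsewhere, and the table gives them 1 position.

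Of 16 tested miRNAs with known roles in sterol and lipid metabolism, 2 were higher in females, miR-34a-5p at a log2 fold change of 1.78 and miR-223-3p at 0.62, and 0 were lower, where 3.24% of all 370 tested miRNAs were higher. Of the 16, 10 had positive values, with a median of 0.06, beside 178 of 370 and a median of -0.01 over all tested miRNAs; with upper-quartile factors the median of the 16 was -0.04. The cluster's 3 tested members are not in that list. Among its members is miR-33-5p, singled out after its values were seen, which is encoded in an intron of the SREBP-2 gene itself. It stood at 47.1, 76.7 and 57.9 CPM in females and 60.0, 33.8 and 38.4 CPM in males, a log2 fold change of 0.45 (SE 0.26; adjusted p = 0.411, edgeR). Female replicate 2, in which miR-182-5p stood at 238 CPM, was its highest library. Male replicates 2 and 3, in which miR-182-5p stood at 242 and 235 CPM, were its lowest. A relation of miR-33-5p to miR-182-5p was not tested. The passenger strand of miR-33-5p, miR-33-3p, was at 0.40 (adjusted p = 0.686, edgeR).

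Epithelial cells are a known site of the cluster, and their markers were read beside it. All 7 tested biliary and epithelial markers had a negative log2 fold change, with a median of -0.22, and none passed the test. The other listed marker, miR-205-5p, was too low for a test and went the other way. Its mean was 2.37 CPM in females and 1.42 CPM in males, on 72 reads in all. The 6 tested stromal markers also were all negative, with a median of -0.22, and the 6 leukocyte markers all positive, with a median of 0.30, while 192 of the 370 tested miRNAs were negative; with no TMM factor 5 of 7 epithelial and 5 of 6 stromal markers were negative. The epithelial markers' summed level was 3010 to 3394 CPM in females and 3625 to 3930 CPM in males, without overlap, and female replicate 2 was the highest female library. Of the 7 tested markers only miR-203-3p had sexes that did not overlap, beside 21.6% of all tested miRNAs. A sum without miR-203-3p was taken after its values were seen. In that sum the sexes overlapped, with 1777 CPM in female replicate 2 and 1699 CPM in male replicate 3. The most abundant were miR-203-3p at -0.34 (adjusted p = 0.106, edgeR), miR-31-5p at -0.14 and miR-200a-3p at -0.22. The level of miR-200a-3p was 523, 565 and 419 CPM in females and 613, 559 and 583 CPM in males, a 1.46-fold range, where that of miR-182-5p was 1.97-fold. The part of epithelial cells in the values of the cluster was not tested. Of the neural, sensory and islet markers, the tissues in which the cluster is known to be abundant, miR-7a-5p was the most abundant, at 1113 to 1420 CPM, with a log2 fold change of -0.18 (adjusted p = 0.484, edgeR). The rest were low: miR-9-5p had 213 reads over all libraries, miR-129-5p 187, miR-375-3p 84, miR-211-5p 33, miR-9-3p 18 and miR-204-5p 2, and miR-124-3p was at 0 in every library. Of that list's 4 tested members, 1 was higher in females, miR-375-3p, beside 3.24% of all 370 tested miRNAs. It stood at 2.49 to 4.79 CPM in females against 1.18 to 1.42 CPM in males, and rests on those 84 reads.

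Of the other lists, 2 of 7 hepatocyte markers were higher, which are the strands of a single hairpin, miR-802, and 1 of 6 leukocyte markers, miR-223-3p, beside the same 3.24% of all tested miRNAs; none was lower. None of 6 stromal, 2 endothelial or 3 erythroid markers passed. The summed level of stromal markers was 8923 to 11440 CPM in females and 12121 to 12804 CPM in males. That of leukocyte markers was 6559 to 6745 CPM in females and 4895 to 6449 CPM in males. Single miRNAs weighed on both sums. Over the libraries miR-143-3p alone held 6757 to 9853 CPM of the stromal sum, and miR-142a-3p 2167 to 3251 CPM of the leukocyte sum. The summed erythroid markers reached 289 CPM in female replicate 2, their highest library, against 179 to 242 CPM in the other 5, and their part in that library's high cluster values was not tested.

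**Figure D4:**
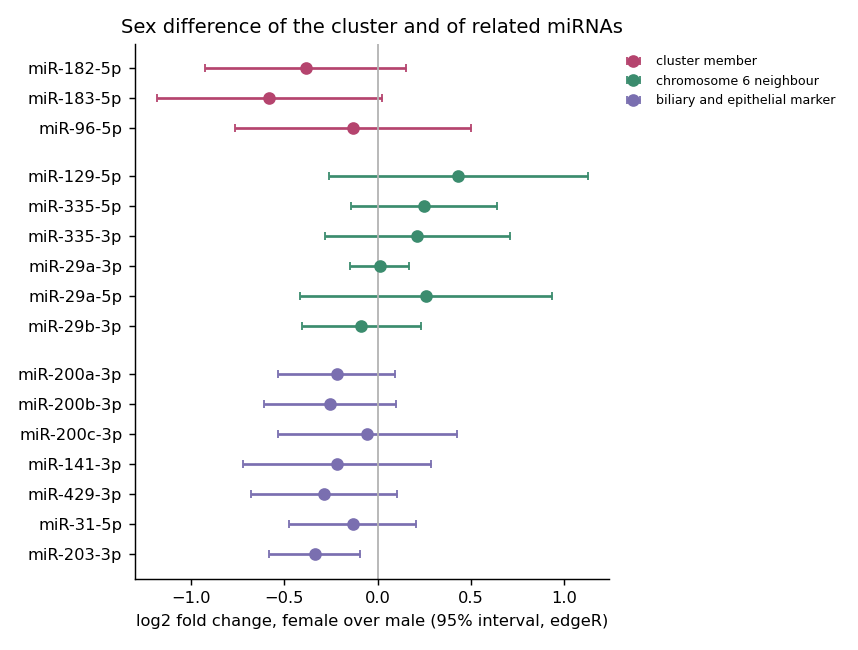
Log2 fold change, female over male, with its unadjusted 95% interval from edgeR, for the 5p members, the tested miRNAs within 2000000 bases of the cluster, and the tested biliary and epithelial markers. The members lie at -0.39, -0.58 and -0.13 with intervals that include 0, and of the miRNAs drawn only miR-203-3p has an interval that does not, with an adjusted p of 0.106.

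The seeds can be read against messenger RNAs that the cluster is known to act on, and against Sh3bp5, which encodes SAB, the mitochondrial protein of this study. The letters that pair with bases 2 to 8 are GTGCCAA for miR-96-5p, TTGCCAA for miR-182-5p and GTGCCAT for miR-183-5p, searched on the sense strand of the longest annotated 3′ untranslated region (GENCODE M21). The sites are printed because matches to the 3 related seeds differ by a base at either end; the seed match is in capitals.

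Insig2, miR-96-5p: tcacaatgtcaatGTGCCAAa
Fbxw7, miR-182-5p: ttcttttttttttTTGCCAAc
Foxo1, miR-96-5p: tcattacaatgaaGTGCCAAa
Foxo1, miR-183-5p: gtagataaggactGTGCCATt
Sh3bp5, miR-96-5p: attcaagaacattGTGCCAAt

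The Insig2 match lies at chr1:121305604-121305624 (minus strand), the first Fbxw7 match at chr3:84978116-84978136 (plus strand), the Foxo1 matches at chr3:52347228-52347248 and chr3:52347202-52347222 (plus strand) and the Sh3bp5 match at chr14:31374916-31374936 (minus strand), all in mm10 and in 3′ untranslated exons. Insig2 held 1 match to miR-96-5p and none to the other members, and Fbxw7 held 2 to miR-182-5p and none to the others. Foxo1, with a long untranslated region of 6240 bases, held 1 match to each of the 3. Sh3bp5 held 1 match to miR-96-5p, 61 bases past the stop codon, and none to miR-182-5p or miR-183-5p. Such letters are common: of untranslated regions within 20% of the same length, 7.98% held the miR-96-5p match for Sh3bp5, 8.75% for Insig2 and 28.0% for Foxo1. The miR-182-5p match was held by 11.7% at the length of Fbxw7, and by 38.6% at the length of Foxo1, where 32.0% held the miR-183-5p match. No messenger RNA was measured in this table, so these matches are descriptions of sequence.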

How the data were processed

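The authors deposited estimated counts of reads per mature miRNA for 6 libraries, not normalised and named by mature strand. Per the submitters' processing notes, Partek, Bowtie and the mm10 build were used, with no version. The handling of multi-mapping reads, adapters and molecular identifiers was not given in the sources used here. The table held 2045 rows; 138 exact repeats were left out and counts were rounded to whole numbers. Of 1623 miRNAs matched by name to RefSeq, 1613 had the same position if the table's stop is taken as 1 base past the end; all 6 members did. Samples were grouped by labelled sex and replicates numbered in accession order. Libraries were titled with numbers that run through males and then females, so sex and that order cannot be told apart. No library pair was a duplicate (chi-square per degree of freedom at least 25.3).

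The test between the sexes was edgeR's quasi-likelihood test (version 4.0.16, R 4.3.3; TMM, filterByExpr with a minimum count of 10 and a total of 15, robust option), checked on simulated data, with Benjamini-Hochberg adjustment over 370 miRNAs. DESeq2 1.42.0 and limma 3.58.1 were alternatives, with other factors and filters, thinning to 3285249 counts and leaving out each library. Ratios used a pseudocount of 0.5, and correlations log2 CPM with a prior count of 2. The members and lists were chosen with earlier results of these data known. Named miRNAs were the members, miRNAs with the same seed, those within 2000000 bases, the 5 most alike, and of each list those past the threshold or the most abundant.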

Additional observations from a re-analysis of the deposited data

How the results depend on the processing

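No fit called any of the 3 members, over 15 alternatives to the fit reported. The log2 fold change stayed negative in all 15 for miR-182-5p (-0.75 to -0.22) and miR-183-5p (-0.90 to -0.40), with adjusted p from 0.116 to 0.791 and from 0.0983 to 0.657. These extremes came from leaving out a library. For miR-96-5p it ranged from -0.47 to 0.13 and changed sign with no TMM factor (0.00061) and without female replicate 1 (0.13). With no TMM factor the median of all tested miRNAs moved from -0.01 to 0.13, and with upper-quartile factors to -0.10. The count of called miRNAs was 13 with a minimum count of 50, where 246 were tested, and between 9 and 32 with 1 library fewer. Leaving out female replicate 2 gave 9, female replicate 3 gave 10 and male replicate 3 gave 12; the cause was not tested. With no filter, miR-183-3p entered the fit on its 4 counts and was not called. The log2 ratios between members kept their sign in all 8 alternatives. The mean cluster share ranged from 0.0194 to 0.0275% in females and from 0.0278 to 0.0312% in males. The within-sex spread without each library was examined after seeing the data.

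The planned test of the 5p to 3p ratio between the sexes was not run, because the 3p strands were at 0 in all libraries but male replicate 3, so that the ratio would follow depth. No paired analysis was possible because the labels give no number shared between females and males. Depth limits the 3p strands to bounds, and 3 animals a group limit the intervals.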

Other observations

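The lack of a minor strand also touched hairpins outside the cluster. Among the 121 hairpins with a major strand at or above miR-96-5p, the other 2 with a minor strand at 0 were those of miR-155, with 1476 reads of its 5p strand, and of miR-34a, with 6864. The hairpin of miR-23a had 2 reads of its 5p strand beside 31533 of its 3p strand, and that of miR-342 had 3 beside 14983. How minor strands were counted by the authors is not stated in the labels.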
